A study of Mus musculus with 6 samples.

Results

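The cytosolic ribosomal protein genes are the nuclear genes for the proteins of the small (Rps) and large (Rpl) ribosomal subunits. They were chosen by symbol alone, as Rps or Rpl followed by a number with its usual suffixes, plus Rplp0, Rplp1, Rplp2 and Rpsa, and without the numbered pseudogenes and the Rps6 kinases. The rule found 82 of the 37620 genes in the count tables, 32 with small-subunit and 50 with large-subunit names, and all 82 were annotated as protein coding. RNA had been sequenced from 3 kinds of mouse cells with 2 biological replicates each. Neural progenitor cells (NPC) had been derived in culture from the J1 embryonic stem cell line. The cells labelled Phc1-KO carry the genotype Phc1-/- and were derived from J1 cells. Wild-type J1 embryonic stem cells (ESC) served as the common comparison. The stem cells were grown with LIF and serum on inactivated mouse embryo fibroblast feeders, and the feeders were removed before use. The labels do not say whether the knock-out is 1 clone or which part of Phc1 it lacks.

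Each ribosome holds about equal numbers of almost all of these proteins, and the genes are among the most strongly transcribed in growing cells. Their mRNAs typically begin with a cytosine and a run of pyrimidines, the terminal oligopyrimidine (TOP) motif, through which mTOR signalling and Larp1 control their translation. Processed pseudogenes, copies of the spliced mRNA set back into the genome, are unusually frequent for this family, so a short read from the coding sequence often has several equal places in the genome.

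Gene counts summed to 15226214 in the smallest library and 21893821 in the largest. Phc1, the Polyhomeotic subunit that the knock-out targets, stood at 326 and 267 CPM in the libraries labelled Phc1-KO, against 460 and 461 CPM in ESC (CPM, read counts scaled by TMM-adjusted library size; log2 fold change -0.63 ± 0.15 SE, edgeR adjusted p = 0.041). This did not pass without ESC 1, ESC 2 or Phc1-KO 2 (adjusted p up to 0.32), and counts over the whole gene do not show whether the deleted part is transcribed. The study's title and design call these cells ESC while their cell type entry reads NPC. The sum of 7 pluripotency markers was 1831 and 2244 CPM in the Phc1-KO libraries, 6.97 and 7.60 CPM in NPC and 1844 and 1844 CPM in ESC. Of 7 neural progenitor markers, 6 were in the tables, and they summed to 170 and 144 CPM in Phc1-KO, 2903 and 1178 CPM in NPC and 163 and 172 CPM in ESC. The sum of 7 fibroblast markers, chosen to follow feeder cells, was 894 and 739 CPM in Phc1-KO, 6760 and 11085 CPM in NPC and 395 and 389 CPM in ESC.

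Ribosomal protein genes took a small share of the gene counts in these rRNA-depleted libraries, and reads without a unique place are not in these counts. Their 82 genes held 1.24% and 1.19% of gene counts in the NPC libraries, 1.89% and 2.60% in Phc1-KO and 2.04% and 2.06% in ESC. The NPC shares lay below both ESC shares, whereas the Phc1-KO libraries lay on either side of them. Small-subunit genes contributed 0.542% and 0.520% in NPC, 0.791% and 1.14% in Phc1-KO and 0.873% and 0.887% in ESC, and large-subunit genes the remainder. With 2 libraries a group no exact permutation test of a share can pass 0.05, so the shares were not tested. In bulk libraries, fewer cells of a type and less RNA per cell cannot be told apart.

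**Figure D1:**
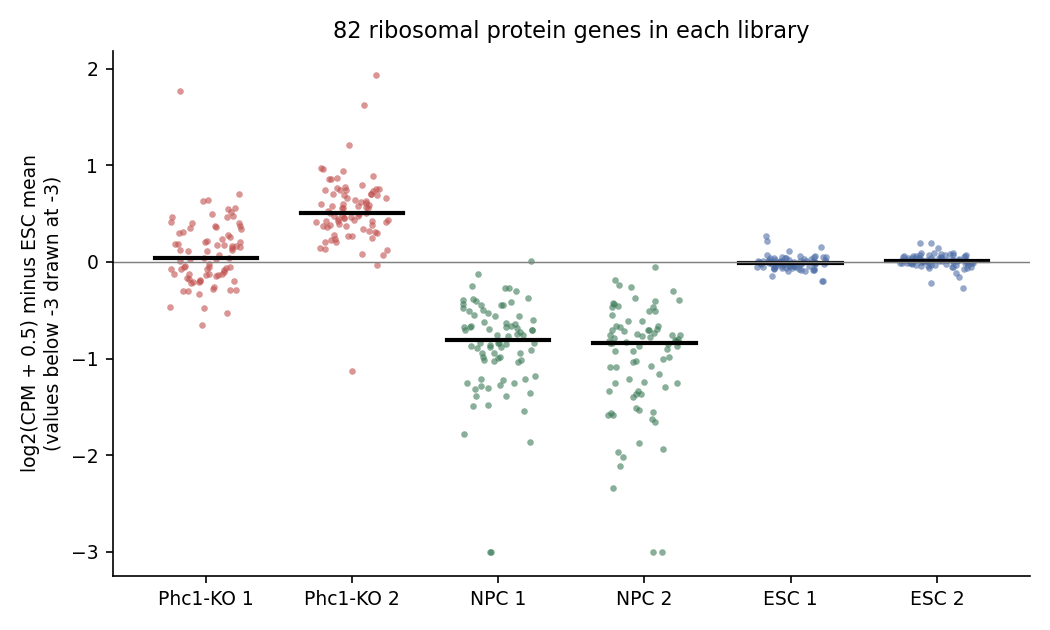
Each point is 1 of the 82 genes, as log2(CPM + 0.5) in a library minus the mean of the 2 ESC libraries; black bars are medians and values below -3 are drawn at -3. The NPC medians lie at -0.80 and -0.84, the Phc1-KO medians at 0.044 and 0.51, and the ESC points scatter closely around 0.

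How much of each gene a 50-base read can place was measured on the mm9 genome, the build of the deposited data. For each 50-base window of the coding sequences, exact matches were counted on both strands. The median member had 12.6% of its coding windows at 1 place only, against 98.5% for the 14892 other coding genes tested. In 22 members no coding window was unique, and this held for 0.342% of the other coding genes. Another 43 members had above 0 and up to 50% of their coding windows unique, and 17 had more than 50%. Among the high shares were 100% in Rpl39l, 98.5% in Rpl3l, 90.5% in Rps3 and 90.03% in Rpl8. Rpl21, which encodes a large-subunit protein and had 14 pseudogenes named after it, had no unique coding window, a median of 21 places a window and a maximum of 45.

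The following 3 coding windows show what a read of this length can meet. Those of Rps12 and Rpl21 were picked for their many places, and that of Rpl8 for having 1 place. Each is given 5′ to 3′ on the coding strand, from NCBIM37 (mm9). The Rps12 window lies in a coding exon at chr10:23505035-23505084 (minus strand) and occurs at 23 places in the genome. The Rpl21 window, from chr5:147647154-147647203 (plus strand), occurs at 24 places. The Rpl8 window, from chr15:76735328-76735377 (plus strand), occurs at 1 place.
Rps12: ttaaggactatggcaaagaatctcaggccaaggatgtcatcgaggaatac
Rpl21: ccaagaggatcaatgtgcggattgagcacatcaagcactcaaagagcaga
Rpl8: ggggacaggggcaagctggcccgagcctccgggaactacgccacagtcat

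The deposited levels of the members moved with this property. Members with no unique coding window had a median of 29.0 CPM in ESC (range 2.998 to 248), those with up to 50% had 141 CPM (6.87 to 844), and those with more than 50% had 351 CPM (0.859 to 1845). Across the 82 members Spearman's rho between the ESC level and the unique share was 0.57, a description over genes that share libraries and sequence families. The 5 highest members held 35.9% of all member counts. Per kilobase of annotated exons in ESC, the highest levels were those of Rpl8 with 2098, Rpl32 with 1632 and Rplp1 with 1482 CPM per kilobase. The lowest were Rpl3l with 0.539, Rps29 with 4.33 and Rpl39l with 5.12 CPM per kilobase. The proteins of Rpl8, Rpl32 and Rps29 are present in equal numbers in a ribosome, while their deposited levels per kilobase ran from 4.33 in Rps29 to 2098 in Rpl8 and their unique shares were 90.03% in Rpl8, 38.8% in Rpl32 and 0% in Rps29. In ESC the SD of log2 CPM per kilobase of exons was 3.13 over the members above 50% unique. These include the paralogs Rpl39l, Rpl3l and Rpl10l, whose ESC levels were low, and the SD without them was not computed. Over the 79 members with 50 or more unique exon windows the SD was 2.27. The part of unplaced reads in each level was not tested.

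**Figure D2:**
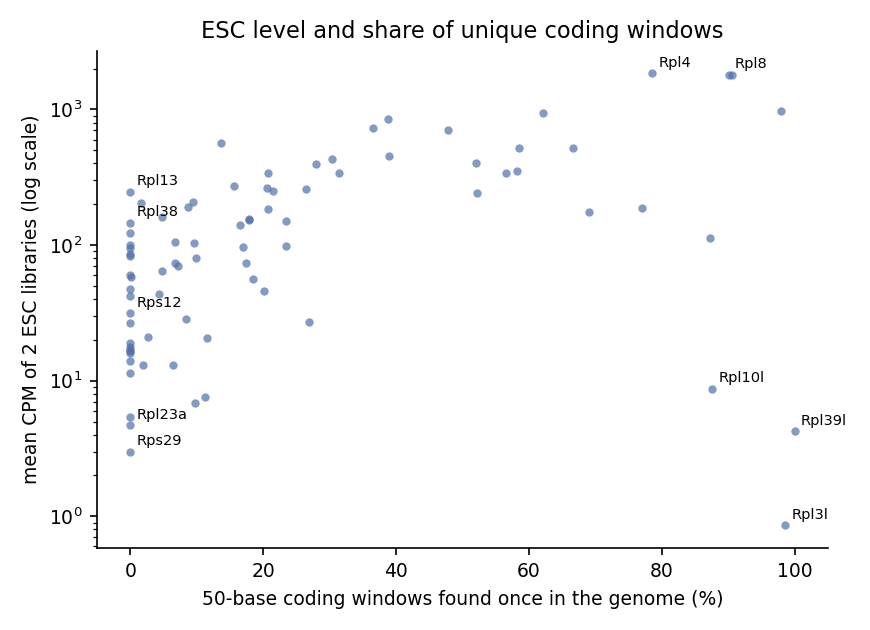
Each point is 1 of the 82 genes: the share of its 50-base coding windows found once in the mm9 genome (x axis, percent) against its mean CPM over 2 ESC libraries (y axis, log scale). Members without a unique window reach 248 CPM at most, and the paralogs Rpl39l, Rpl3l and Rpl10l are the low points on the right.

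Named copies of the members took few of the counted reads. Of 163 pseudogenes named after 52 members, 20 had no count in any library, and together they held 1.53 and 1.63 counts per 100 member counts in NPC, 1.24 and 1.07 in Phc1-KO and 1.33 and 1.34 in ESC. Over all libraries 3 had more counts than the member they are named after, namely Rps13-ps1, Rpl19-ps7 and Rpl3-ps1, and these 3 held 56.5% of all named-pseudogene counts. Rps13-ps1, for example, held 5007 counts over all libraries against 1721 for Rps13. By sequence, 75 of the 82 members shared a coding window with another annotated gene. Outside the 82 members 725 genes did so, 532 of them typed as pseudogenes and 183 as protein coding. Genes that overlap a member in position were not set apart from copies. These 725 held 11.7 and 12.2 counts per 100 member counts in NPC, 10.1 and 9.40 in Phc1-KO and 9.65 and 9.89 in ESC. Alignments without a unique place, which the tables only tally and give to no gene, numbered 1.14 and 1.11 per read counted in a gene in NPC, 1.70 and 1.498 in Phc1-KO and 1.30 and 1.31 in ESC. Whether a read with several places entered this tally more than 1 time is not given. That tally covers repeats of every kind, and the reads of members within it are not analysed here.

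Ribosomal protein genes were lower in NPC than in ESC, in both subunits. Of 82 members tested, 61 fell (edgeR quasi-likelihood, adjusted p under 0.05 over 17489 genes), where 30.9% of all genes were called lower. In the direction of an increase 0 members were called, where 30.4% of all genes were; 0 were called by DESeq2 and 0 at an unadjusted p under 0.05. The median log2 fold change of the members was -0.82 (quartiles -1.27 to -0.63), against -0.01 for all genes tested (quartiles -0.90 to 0.92). Both NPC libraries lay below both ESC libraries in 81 of 82 members, Rps27l being the exception, and in 43.4% of all genes. The fibroblast and neural marker sums given above moved with the same contrast, and their part in these differences was not tested. Without ESC replicate 1 the median log2 fold change of the members was -0.88.

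The small-subunit genes had a median log2 fold change of -0.80 with 22 of 32 passing as lower, and the large-subunit genes -0.85 with 39 of 50. By share of unique coding windows, the medians were -0.997 in the 22 members with none (17 fell), -0.82 in the 43 with up to 50% (30 fell) and -0.78 in the 17 above 50% (14 fell). Rpl8, a large-subunit protein with 90.03% unique windows, had 1007 and 1068 CPM in NPC, against 1793 and 1824 CPM in ESC (log2 fold change -0.80 ± 0.18, adjusted p = 0.0077). In this well-placed gene the NPC libraries lay close together and below the ESC pair.

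The largest decreases outside the paralogs were those of Rps12 and Rps3a, both small-subunit genes. Rps12 had 8.75 and 5.78 CPM in NPC, against 31.3 and 31.3 CPM in ESC (log2 fold change -2.11 ± 0.28, adjusted p = 0.00064). None of its coding windows was unique, and 22 other annotated genes shared one. Rps3a had 5.33 and 4.74 CPM in NPC, against 19.4 and 22.02 CPM in ESC (log2 fold change -2.04 ± 0.21, adjusted p = 0.00024), with 11.6% of its coding windows unique. Both lay beyond the lower quartile of the family, with few or none of their coding windows unique. These shares leave out untranslated parts of the exons. Over the exons of all annotated transcripts the median member had 69.1% of its windows unique.

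The other end of the ranking held members whose difference did not pass. Rps27l, a paralog of Rps27 that is a p53 target in human cells, had 177 and 169 CPM in NPC, against 167 and 185 CPM in ESC (log2 fold change -0.03, 95% interval -0.64 to 0.59, adjusted p = 0.93). Its NPC and ESC libraries overlapped. Rpl38, known for its effect on Hox mRNA translation in mouse embryos, had 134 and 129 CPM in NPC, against 138 and 155 CPM in ESC (log2 fold change -0.16, interval -0.66 to 0.35). Rpl15 had a log2 fold change of -0.26 (interval -0.69 to 0.18) and Rpl23 of -0.28 (interval -0.61 to 0.04). All 4 intervals lie above the family median of -0.82.

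**Figure D3:**
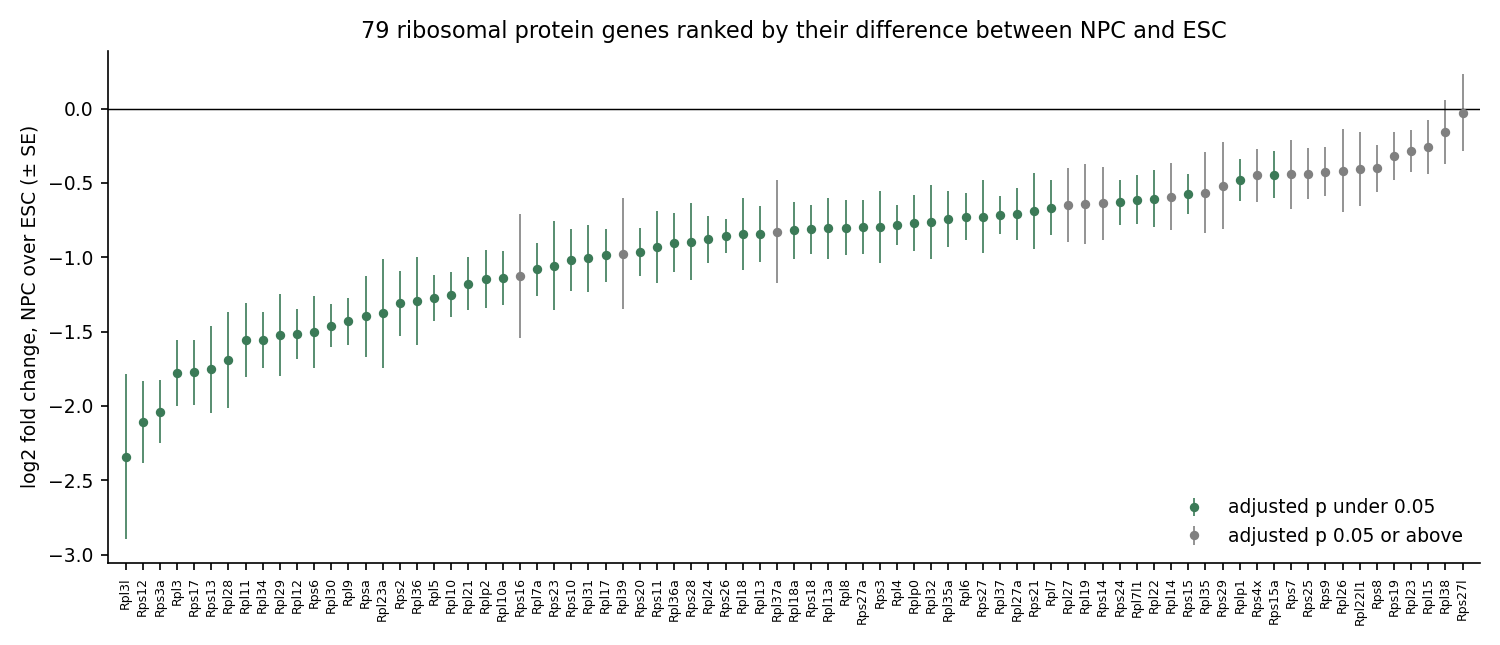
Log2 fold change of NPC over ESC with its SE for 79 members in rank order; Rpl10l and Rpl39l, with 1 count each in the NPC libraries, are among the 3 members not drawn. Every point drawn lies below 0, from Rpl3l at -2.34 to Rps27l at -0.03, and green points passed the test.

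The proteins of the P stalk, which recruits the translation factors that hydrolyse GTP, were measured by 3 genes, and all 3 fell in NPC. Rplp0 had 276 and 254 CPM in NPC, against 463 and 441 CPM in ESC (log2 fold change -0.77 ± 0.19, adjusted p = 0.010). Rplp1 had 537 and 515 CPM in NPC, against 739 and 728 CPM in ESC (log2 fold change -0.48 ± 0.14, adjusted p = 0.020). Rplp2 had 167 and 143 CPM in NPC, against 347 and 338 CPM in ESC (log2 fold change -1.14 ± 0.19, adjusted p = 0.0020). In each of the 3 the NPC pair was below the ESC pair without overlap. Rplp0 did not pass without ESC 1 (adjusted p = 0.059), nor Rplp1 without ESC 1, ESC 2 or NPC 2 (adjusted p up to 0.13). Rpl5 and Rpl11, which with 5S rRNA form the particle that binds Mdm2 when ribosome assembly fails, fell by 1.27 and by 1.56 on the log2 scale.

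The 4 members on the X chromosome split at the threshold. Rpl10, which encodes a protein near the peptidyl transferase centre, had 28.6 and 29.9 CPM in NPC, against 69.9 and 69.7 CPM in ESC (log2 fold change -1.25 ± 0.15, adjusted p = 0.00046). Rpl36a had 16.2 and 12.3 CPM in NPC, against 26.5 and 26.8 CPM in ESC (log2 fold change -0.90 ± 0.20, adjusted p = 0.0061). Rpl39, of the exit tunnel, did not pass with 43.5 and 61.2 CPM in NPC, against 89.1 and 117 CPM in ESC (log2 fold change -0.98 ± 0.37, adjusted p = 0.054). Rps4x did not pass either, with 155 and 152 CPM in NPC, against 209 and 210 CPM in ESC (log2 fold change -0.45 ± 0.18, adjusted p = 0.064). Of 16 members whose human counterparts are mutated in Diamond-Blackfan anaemia, an inherited failure of red cell production, 10 fell, with a median log2 fold change of -0.74, beside 61 of 82 in the family and 30.9% of all genes.

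The paralogs, additional genes related in sequence to an ordinary ribosomal protein gene, held the widest range. Rpl10l, an intronless copy of Rpl10 known from mouse testis, lies at chr12:67384368-67385388 on the minus strand of mm9. It had 30.95 and 34.9 CPM in Phc1-KO, 0.0658 and 0 CPM in NPC and 8.33 and 9.19 CPM in ESC. The NPC libraries held 1 read between them, against 286 in ESC, a ratio of ESC over NPC of 268 with a 95% counting interval from 47.7 to 10625. Phc1-KO held 1313 reads against the same 1 in NPC, a ratio of 1011 (interval 181 to 39946). Rpl10l was also the member with the largest increase in Phc1-KO relative to ESC, with a log2 fold change of 1.91 ± 0.23 (adjusted p = 0.0073; up to 0.097, and not passing, without ESC 1, ESC 2 or Phc1-KO 2). Of its coding windows 87.5% were unique, so reads could be placed over most of its coding sequence. Where in the gene the counted reads fell was not tested.

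Rpl39l, a paralog of Rpl39 with strong expression in mouse germ cells, lies at chr16:10170319-10175004 on the plus strand of mm9. It had 6.91 and 10.5 CPM in Phc1-KO, 0.0658 and 0 CPM in NPC and 4.26 and 4.26 CPM in ESC. Its 349 reads in Phc1-KO and 139 in ESC stood against 1 in NPC, ratios over NPC of 269 (95% counting interval 47.9 to 10640) and 130 (23.0 to 5183). Between Phc1-KO and ESC the log2 fold change of 1.03 ± 0.33 did not pass (adjusted p = 0.092), although both Phc1-KO libraries lay above both ESC libraries. The coding sequences of Rpl39l and of Rpl39, on the minus strand of the X chromosome, have 156 bases each and are 85.3% identical over the 156 positions. They are shown here because this pair is told apart by reads, with capitals at the 23 positions that differ.
Rpl39l: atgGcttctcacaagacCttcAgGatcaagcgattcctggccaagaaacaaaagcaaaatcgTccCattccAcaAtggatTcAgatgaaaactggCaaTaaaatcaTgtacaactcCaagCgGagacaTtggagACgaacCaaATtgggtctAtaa
Rpl39: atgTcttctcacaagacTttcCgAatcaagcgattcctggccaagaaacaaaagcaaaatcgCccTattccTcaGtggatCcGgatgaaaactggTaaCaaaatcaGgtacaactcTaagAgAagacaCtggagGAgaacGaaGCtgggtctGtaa
The longest stretch that both share is 38 bases, shorter than a read of 50, and every coding window of Rpl39l was unique in the genome. Of the coding windows of Rpl39, 9.62% were unique.

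The remaining paralogs lay closer to the ordinary members. Rpl3l, the striated-muscle counterpart of Rpl3, had 30 and 28 reads in Phc1-KO, 3 and 2 in NPC and 18 and 10 in ESC, near the limit of detection throughout. In NPC it fell by 2.34 on the log2 scale (SE 0.56, adjusted p = 0.0089), and without ESC replicate 1 this did not pass. Rpl7l1, a paralog of Rpl7, had 268 and 363 CPM in Phc1-KO, 127 and 117 CPM in NPC and 185 and 188 CPM in ESC. It fell in NPC (log2 fold change -0.61 ± 0.16, adjusted p = 0.015) and rose in Phc1-KO relative to ESC (0.76 ± 0.16, adjusted p = 0.034). The decrease in NPC did not pass without ESC 1, ESC 2 or NPC 2 (adjusted p up to 0.086), and the increase in Phc1-KO did not pass without ESC 1, ESC 2 or Phc1-KO 2 (adjusted p up to 0.28). Rpl22l1, whose level Rpl22 represses in mouse, had 46.7 and 78.1 CPM in Phc1-KO, 52.3 and 59.9 CPM in NPC and 66.8 and 81.7 CPM in ESC, and passed in no comparison. Its log2 fold change between Phc1-KO and ESC was -0.25 (95% interval -0.84 to 0.34).

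**Figure D4:**
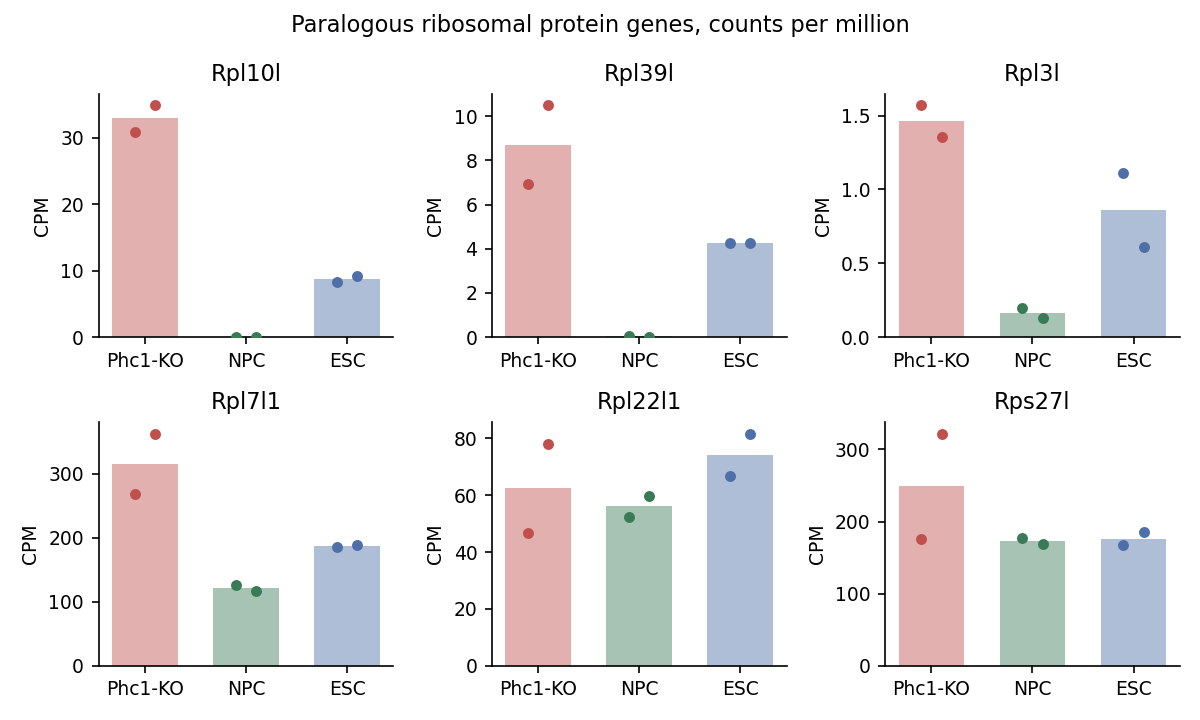
CPM of 6 paralogous genes in each library (points) with the group mean (bars, axes from 0), for Phc1-KO, NPC and ESC from left to right. Rpl10l and Rpl39l are close to 0 in NPC and highest in Phc1-KO, while Rps27l overlaps between NPC and ESC, and Rpl22l1 in Phc1-KO overlaps NPC and ESC.

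Between the libraries labelled Phc1-KO and ESC, the median ribosomal protein gene was higher in Phc1-KO, and few differences passed. Rpl10l and Rpl7l1, both paralogs, were the 2 of 82 members that rose, or 2.44%, where 4.91% of all genes were called higher. In the direction of a decrease 0 members were called, where 5.75% of all genes were. There were also 0 by DESeq2 and 0 at an unadjusted p under 0.05. At that unadjusted p 21 were higher, and 11 were by DESeq2, which called 1375 of 17489 genes higher. The median log2 fold change was 0.28 (quartiles 0.15 to 0.49), against 0.00 for all genes, and 75 of 82 were above 0. When a library was left out, this median was 0.30 without ESC 1, 0.32 without ESC 2 and 0.29 without either NPC library. It was 0.53 without Phc1-KO 1 and 0.046 without Phc1-KO 2, so its size depended on the Phc1-KO library kept. The fibroblast marker sum was also higher, at 894 and 739 CPM in Phc1-KO, against 395 and 389 CPM in ESC, and its part in these differences was not tested. Both Phc1-KO libraries lay above both ESC libraries in 40 members, or 48.8%, where 32.6% of all genes did so. No ordinary member passed, including all 4 X-linked genes and all 3 P stalk genes: Rplp0, Rplp1 and Rplp2 had log2 fold changes of 0.19 (95% interval -0.25 to 0.63), 0.28 (-0.05 to 0.61) and 0.34 (-0.11 to 0.79).

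The Phc1-KO libraries differed from each other. Member levels in Phc1-KO 2 exceeded those in Phc1-KO 1 by a median of 0.45 on the log2 scale, with 77 of 82 higher in Phc1-KO 2. The coefficient of variation beyond counting noise was 27.2% for members in the Phc1-KO pair, 8.74% in the NPC pair and 4.19% in the ESC pair, against 18.1%, 27.5% and 1.98% for all genes. Phc1-KO 2 had 79 members above both ESC libraries and 1 below both, where 44.5% and 45.8% of all genes were. Phc1-KO 1 had 41 above and 34 below both, where 43.5% and 45.3% of all genes were. Without Phc1-KO replicate 1 the median log2 fold change over ESC was 0.53, and without Phc1-KO replicate 2 it was 0.046. Reads outside genes numbered 1.08 per read in a gene in Phc1-KO 1 and 0.661 in Phc1-KO 2, and their part in this split was not tested.

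Single members departed from this shift. Rps16, a small-subunit gene without a unique coding window, had 15.3 CPM in Phc1-KO 1 and 6.14 in Phc1-KO 2, against 15.2 and 12.9 CPM in ESC, and so went the other way from the family between the Phc1-KO libraries. Rpl11 also went the other way, with 34.6 and 23.4 CPM in Phc1-KO, against 20.3 and 21.9 CPM in ESC. Rpl39 had 141 and 315 CPM in Phc1-KO, against 89.1 and 117 CPM in ESC (log2 fold change 1.15 ± 0.37, adjusted p = 0.093). Rpl4, the member with the highest ESC level, had 1696 and 1808 CPM in Phc1-KO, against 1891 and 1799 CPM in ESC (log2 fold change -0.07, 95% interval -0.40 to 0.25). Rps16, Rpl11 and Rpl4 were picked out after their values had been seen.

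**Figure D5:**
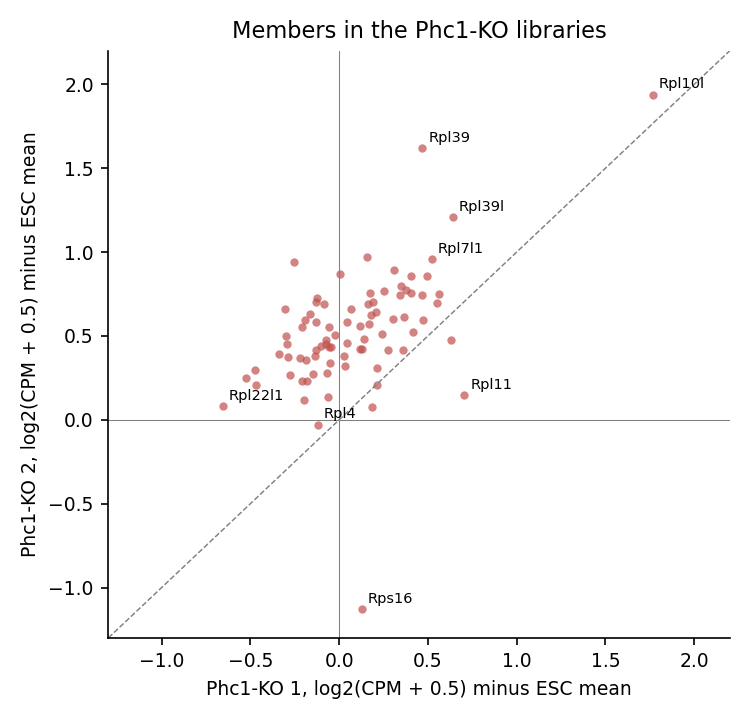
Each point is 1 of the 82 genes: log2(CPM + 0.5) minus the ESC mean in Phc1-KO 1 (x axis) and Phc1-KO 2 (y axis), with the dashed line at equal values. Most points lie above the line; Rps16 and Rpl11 lie well below it, and Rpl10l is high in both libraries.

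Set against NPC, the Phc1-KO libraries had higher levels across the family. Of 82 members 73 rose, where 32.3% of all genes were called higher, and 0 were called lower by edgeR, by DESeq2 and at an unadjusted p under 0.05, where 32.7% of all genes were called lower. The median log2 fold change was 1.13. Both Phc1-KO libraries lay above both NPC libraries in 78 members, against 40.9% of all genes, and Rpl22l1, Rpl38, Rps16 and Rps27l were the exceptions. This comparison shares its libraries with the other comparisons and adds no independent sample. Rps12 had 39.0 and 58.5 CPM in Phc1-KO, against 8.75 and 5.78 CPM in NPC (log2 fold change 2.75 ± 0.28, adjusted p = 0.00020). Rps3a had 29.4 and 37.9 CPM in Phc1-KO, against 5.33 and 4.74 CPM in NPC (log2 fold change 2.74 ± 0.21, adjusted p = 7.2e-05).

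The TOP motif was looked for at the annotated starts of the members, since it is the sequence that the family is known to share. Start sequences from RefSeq (GRCm38.p6) were matched for 61 of the 82 members. The motif was taken as a C at the annotated start base followed by at least 4 pyrimidines (C or T) on the coding strand. It was found in 13 members, or 21.3%, and in 2.97% of 26964 other genes. A run of 7 or more pyrimidines over the start base was found in 31.1% of members and 6.17% of other genes. Annotated starts can lie some bases from the true cap site, so the absence of these letters at the start base says nothing of the mRNA. Of these 13, 5 are given, from members with large and with small differences between NPC and ESC, as 15 bases before the start and 15 from it, 5′ to 3′, with the motif in capitals: Rps6 at chr4:86857353-86857382 (minus), Rpl28 at chr7:4792950-4792979 (plus), Rplp2 at chr7:141447636-141447665 (plus), Rpl15 at chr14:18270972-18271001 (minus) and Rpl38 at chr11:114668565-114668594 (plus).
Rps6: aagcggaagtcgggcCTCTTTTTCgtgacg
Rpl28: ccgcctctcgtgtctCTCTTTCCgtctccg
Rplp2: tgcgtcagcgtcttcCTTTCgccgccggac
Rpl15: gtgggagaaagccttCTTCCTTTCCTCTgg
Rpl38: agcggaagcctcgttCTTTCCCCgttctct
Within these 5, the log2 fold change of NPC over ESC was -1.50 in Rps6, -1.69 in Rpl28, -1.14 in Rplp2, -0.26 in Rpl15 and -0.16 in Rpl38. The 13 members with the motif ran from -1.69 to -0.16, with a median of -0.73, against -0.85 in the matched members without it. Between Phc1-KO and ESC the medians were 0.34 with the motif and 0.28 without it.

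Genes that act beside the ribosomal proteins were counted from lists. Their counts are read against all genes tested, of which 30.9% were called lower and 30.4% higher in NPC relative to ESC, and 4.91% higher in Phc1-KO relative to ESC. Of 4 ribosomal protein genes whose symbols fall outside the naming rule, 3 fell in NPC, with a list median log2 fold change of -0.96. Fau, which encodes a fusion with the small-subunit protein eS30, had a mean of 6.02 CPM in NPC, against 12.1 CPM in ESC (log2 fold change -1.01, adjusted p = 0.012; 0.079 without ESC 2). Rpl36al had 37.3 CPM in NPC, against 70.0 CPM in ESC (-0.91, adjusted p = 0.0052).

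Of 57 ribosome biogenesis factors tested, 52 fell in NPC, with a median log2 fold change of -1.13. Ncl (nucleolin) had 747 CPM in NPC, against 2048 CPM in ESC (log2 fold change -1.46), Fbl, the rRNA 2′-O-methyltransferase, had 10.99 CPM in NPC, against 36.05 CPM in ESC (-1.71), and Utp14a, of the small-subunit processome, had 35.1 CPM in NPC, against 175 CPM in ESC (-2.31). In Phc1-KO relative to ESC, 15 of the 57 rose, with a median of 0.44; Rrp9 had 182 CPM in Phc1-KO, against 95.5 CPM in ESC (0.93, adjusted p = 0.028). RNA polymerase I subunits and factors, which transcribe the rRNA genes, had 11 of 14 lower in NPC (median -0.81) and 3 of 14 higher in Phc1-KO relative to ESC (median 0.35). These 3 were Polr1a, the largest subunit, Cd3eap and Rrn3, with log2 fold changes of 0.64, 0.99 and 0.70. Without ESC 1, ESC 2 or Phc1-KO 2, 0 genes of either list were called higher in Phc1-KO relative to ESC. Without either NPC library these counts were 25 of 57 and 7 of 14, and the RNA polymerase I genes lower in NPC numbered 7 without ESC 1 and 6 without ESC 2.

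Mitochondrial ribosomal proteins, which build the separate ribosome of mitochondria, had 26 of 75 lower and 5 higher in NPC, with a median of -0.32, from Mrpl15 at -1.52 to Mrpl12 at 1.15. The share called lower was near the 30.9% of all genes, and the 5 of 75 higher stood beside 30.4%. In Phc1-KO relative to ESC 5 rose, beside 4.91% of all genes, namely Mrpl12, Mrps34, Mrpl20, Mrpl17 and Mrps7, with a median of 0.34 over the 75. That count was 0 without ESC 1, ESC 2 or Phc1-KO 2 and 14 without Phc1-KO 1. The counts in NPC were 14 lower and 2 higher without ESC 1, 15 lower and 2 higher without ESC 2, and 8 higher without either Phc1-KO library. Of 17 translation factors with TOP mRNAs 13 fell in NPC (median -0.65), or 6 without ESC 1 and 8 without ESC 2. Eef1b2 had 385 CPM in NPC, against 652 CPM in ESC (log2 fold change -0.76, adjusted p = 0.0025). Eef1a1, the elongation factor that carries aminoacyl-tRNA, did not pass, with 2113 CPM in NPC, against 2462 CPM in ESC (-0.22, adjusted p = 0.33).

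Of 13 genes of TOR signalling to these mRNAs, 4 fell and 1 rose in NPC, with a median of -0.08; the share that fell was near that of all genes (30.9%), and 30.4% of all genes rose. The kinase gene Mtor had 149 CPM in NPC, against 170 CPM in ESC, and did not pass (log2 fold change -0.19, adjusted p = 0.33). Eif4ebp1, a translational repressor that mTOR inactivates, fell by 2.11 on the log2 scale, and Larp1, which binds the TOP motif, fell by 0.83. Eif4ebp2 and Larp4 also fell, by 0.87 and 0.59, and Rps6kb1, the S6 kinase gene, rose by 0.44; without ESC 1 or without ESC 2 only Eif4ebp1 passed among the 13, and without NPC 2 Larp1 and Eif4ebp2 did not pass. Of 10 genes of the Myc network, a list that joins the Myc genes with others such as Mxd4, 4 fell and 3 rose in NPC. Mycn had 7.50 CPM in NPC, against 143 CPM in ESC (log2 fold change -4.25), and Myc had 56.5 CPM in NPC, against 12.8 CPM in ESC (2.14). In Phc1-KO relative to ESC, Myc was the Myc network gene that rose, with 26.4 CPM in Phc1-KO, against 12.8 CPM in ESC (1.04, adjusted p = 0.027; up to 0.24, and not passing, when any 1 ESC or Phc1-KO library was left out).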

How the data were processed

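Total RNA was depleted of ribosomal RNA with Ribo-Zero Gold, made into TruSeq libraries and sequenced as 50-base single-end reads, per the labels' protocols. The authors deposited unnormalized read counts for each Ensembl gene, and 5 closing tallies (such as alignments without a unique place) stayed out of library sizes and tests. STAR, HTSeq and mm9 are named in the submitters' processing notes; their versions, the annotation release and the use of strand are not given here, so reads of overlapping or antisense genes cannot be told apart. Symbols and positions came from GENCODE M1 (mm9), which named 37205 of 37620 genes.

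Counts were fitted with edgeR 4.0.16 in R 4.3.3 (quasi-likelihood F test, TMM scaling, filterByExpr at 10 counts and a total of 15). All 6 libraries entered 1 fit with 3 residual degrees of freedom. All 82 members were among the 17489 genes tested. P values were adjusted by Benjamini-Hochberg over all genes tested, with a threshold of 0.05, and the SE is the log2 fold change divided by the square root of F. CPM use TMM-adjusted library sizes. Intervals cover 95%, and those on counts cover counting error only. The fit was tested on simulated data. Replicates are biological per the labels; whether the ESC pair came from separate cultures is not given.

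Named genes were Phc1, the 5 largest increases and decreases that passed per comparison, the 3 highest and 3 lowest levels per kilobase in ESC, every P stalk, paralog and X-linked member, and the members with the highest and lowest unique shares. From each list, the first 3 genes as written and the 3 largest changes that passed could be named, and every gene that passed when no more than 5 did. Of the genes so chosen, 2 are not reported here. The members, lists and roles were chosen with earlier results of these data known. Lists are described by counts and medians, without a test of their own. Alternatives were DESeq2 1.42.0, other scalings, no filter, fits of 2 groups, a replicate block, each library left out, ESC counted as 1 library, and pseudogene counts added to members.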

Additional observations from a re-analysis of the deposited data

Results flagged for a closer look

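Alignments without a unique place, which enter no gene count, were more frequent relative to reads in genes in both Phc1-KO libraries than in ESC. Phc1-KO 1 had 1.70 and Phc1-KO 2 had 1.498 such alignments per read in a gene, against 1.30 and 1.31 in the ESC libraries. Reads outside annotated genes were more frequent in both NPC libraries, with 1.03 in NPC 1 and 1.09 in NPC 2 per read in a gene, against 0.839 and 0.851 in ESC. Both tallies lie outside the counts compared above and were picked out because both libraries of a group exceeded both ESC libraries. Which genes these reads come from was not tested.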

How the results depend on the processing

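Each comparison of members was recomputed under 16 alternatives. In NPC against ESC the members called lower ranged from 39 to 77 when a library was left out, with medians from -0.88 to -0.80; 36 members were called under the main settings and all alternatives. In Phc1-KO against ESC the members called higher were 11 with DESeq2, 14 in a fit of only these groups and 0 with the ESC libraries summed as 1, and 0 to 18 when a library was left out, with medians from 0.046 to 0.53. In Phc1-KO against NPC 66 members were called higher under all alternatives, and the median ranged from 0.85 to 1.42 when a library was left out. Upper-quartile scaling moved the median of all genes to -0.11 in NPC against ESC, where the member median was -0.92. The share of member counts was 0.376% in NPC, 0.653% in Phc1-KO and 0.645% in ESC on average when the tallies, including alignments without a unique place, joined the total. It was 2.08% in ESC with named pseudogenes added. The median share of unique windows was 69.1% over the exons of all annotated transcripts, an alternative chosen after seeing the data. Per kilobase of unique windows, the SD of log2 levels over 79 members in ESC was 2.32, against 2.27 per kilobase of exons. Signs turned only for members that had not passed. In Phc1-KO against ESC they turned for 32 of 82 members without Phc1-KO replicate 2, and for 7 or fewer under each other alternative; in the other comparisons they turned for 2 or fewer under any alternative. As examples, over the fits that each left out 1 library, log2 fold changes ranged from -0.11 to 0.033 for Rps27l in NPC against ESC, from -0.10 to 0.45 for Rplp0, -0.074 to 0.46 for Rps4x and -0.67 to 0.079 for Rpl22l1 in Phc1-KO against ESC, and from -0.25 to 0.50 for Rpl22l1 in Phc1-KO against NPC. The causes were not tested.

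The labels share replicate numbers but state no pairing. Deviations of same-numbered libraries correlated at 0.017 to 0.020 with ESC and -0.021 between NPC and Phc1-KO. The ESC libraries varied by only 1.98% beyond counting noise over all genes, so the correlations with ESC cannot show whether libraries were paired. With a replicate block 63 members were lower in NPC than in ESC, and 3 were higher in Phc1-KO than in ESC. Depth limits Rpl10l and Rpl39l in NPC, with 1 count each over both libraries.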
